A study of Mus musculus with 10 samples.

Results

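The genes described here are the lipins and the enzymes that assemble triglyceride in the liver: Lpin1, Lpin2, Lpin3, Gpam, Agpat2, Dgat1, Dgat2 and Mogat1, with the lipid droplet protein gene Pnpla3. They were chosen by name, as the glycerol phosphate route from the first acylation to the last, after the contrast of these arrays was known. All their probe sets that carry a single gene symbol were taken, 16 probe sets of 9 genes, out of 45101 probe sets on the array and 12736 genes tested. A probe set is the group of short probes that reads a transcript, usually near its 3 prime end.

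RNA from the livers of 10 mice labelled ApoE-/- was read on Affymetrix mouse expression arrays, each array holding the liver of a different mouse. There were 5 mice given an adenovirus that expresses dominant negative cJun (arrays labelled dn-cJun, replicates 16 to 20) and 5 given a control adenovirus that expresses GFP (replicates 11 to 15). All 10 carry the ApoE-/- label and all received a virus, so there is no uninfected group. The cJun protein pairs with Fos or ATF proteins to form AP-1, and the study asked how blocking it affects genes of lipid homeostasis. The sources used here give no age, sex, feeding state or time after infection.

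Triglyceride is built by adding fatty acids to glycerol phosphate, step by step. Gpam encodes the mitochondrial enzyme that adds the first acyl chain, and Agpat2 an enzyme of the endoplasmic reticulum that adds the next and yields phosphatidic acid. The lipins remove the phosphate to give diacylglycerol, and Lpin1 protein can also act in the nucleus as a partner of transcriptional regulators such as PPARalpha. Dgat1 and Dgat2 encode unrelated enzymes that add the last chain. Mogat1 encodes an acyltransferase of the Dgat2 family that makes diacylglycerol from monoacylglycerol, a side entry to the route. Pnpla3 encodes a lipid droplet protein of the patatin family, and in mouse liver its transcript is known to follow feeding and SREBP1c.

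Some facts of the arrays bear on every value below. Apoe itself had a log2 signal of 15.31 to 15.82 in the arrays labelled dn-cJun, against 9.42 to 10.94 in the controls, a log2 fold change of 5.41 (SE 0.22). All mice carry the same ApoE-/- label, so the difference goes against the labels, and directions below are those of the arrays as labelled. Apoe signal and virus group split the arrays alike, so their parts in the differences below cannot be told apart. Jun was at 9.84 to 10.82 in the arrays labelled dn-cJun and at 10.18 to 10.73 in the controls, and whether its probe set reads the viral form is not known. Controls 14 and 15 had Xist, which silences an X chromosome in female cells, at 13.71 and 13.63, while no other array was above 6.72, and Eif2s3y, encoded on the Y chromosome, had 5.22 and 4.08 there and 10.58 to 11.13 in the other 8 arrays. Fold changes of the members are therefore also given without these 2 controls, and those of other genes where they moved by over 1.5 times. The extraction entry of control 11 names Trizol and that of the other 9 arrays names Affymetrix. The 3 prime minus 5 prime log2 difference of the control probe sets, a measure of RNA quality, was 0.03 higher for Gapdh and 0.04 higher for Actb in the arrays labelled dn-cJun (adjusted p = 0.429 for each by an exact two-sided permutation of the groups, 252 splits). On the values as deposited, the RNA quality difference, Gapdh, was -0.031 and the RNA quality difference, Actb, was 0.12 (adjusted exact permutation p = 0.0159), so the Actb difference passed and that of Gapdh turned.

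Because cJun binds DNA as part of AP-1 or with ATF and CREB family partners, the promoters of the members were read for the motifs of these factors. RefSeq (GRCm38.p6) gave 11 promoter windows for 7 of the 9 members, and the 250 bases before each transcript start were searched on both strands for TGACTCA (AP-1), TGACGTCA (cyclic AMP response element), TCACNCCAC (sterol response element) and CACGTG (E-box). The windows of Lpin1, Lpin3 and Pnpla3 are shown because Lpin1 and Pnpla3 had the largest differences of the 9 members and Lpin3 held the only AP-1 match. They are chr12:16610967-16611216 on the minus strand, chr2:160880420-160880669 on the plus strand and chr15:84167566-84167815 on the plus strand. Each is written 5′ to 3′ and ends at the base before the transcript start, and capitals mark a match to a motif.
Lpin1: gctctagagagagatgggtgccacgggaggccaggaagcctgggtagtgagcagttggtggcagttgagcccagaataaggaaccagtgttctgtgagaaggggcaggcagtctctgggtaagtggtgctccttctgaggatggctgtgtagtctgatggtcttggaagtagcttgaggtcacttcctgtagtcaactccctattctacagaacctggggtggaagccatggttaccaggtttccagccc
Lpin3: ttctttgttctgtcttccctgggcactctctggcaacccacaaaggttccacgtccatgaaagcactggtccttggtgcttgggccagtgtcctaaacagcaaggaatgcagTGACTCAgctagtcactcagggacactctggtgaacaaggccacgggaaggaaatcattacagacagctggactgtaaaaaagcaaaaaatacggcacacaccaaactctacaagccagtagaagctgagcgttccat
Pnpla3: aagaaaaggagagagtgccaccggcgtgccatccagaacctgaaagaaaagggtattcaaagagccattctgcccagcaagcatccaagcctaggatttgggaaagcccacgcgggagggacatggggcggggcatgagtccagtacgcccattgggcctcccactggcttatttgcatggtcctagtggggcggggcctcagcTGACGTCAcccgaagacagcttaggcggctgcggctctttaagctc
The Pnpla3 window held the cyclic AMP response element in full, 46 to 39 bases before the start, a motif found in 1.55% of 32851 promoter windows of this length. The annotated span of Pnpla3 (chr15:84167776-84189521) begins inside this window, at the motif, so other starts of Pnpla3 are not covered by it. The Lpin3 window held the AP-1 motif 138 to 132 bases before the start, which 4.46% of all windows did, and the other Lpin3 window held none of the 4 motifs. No match was found in the Lpin1 window, which lies within the annotated span of the gene (chr12:16535669-16653903), so other starts of Lpin1 are not covered by it. Among the other members, 1 of the 3 windows of Lpin2 had an E-box, found in 6.02% of windows, and the sterol response element was in none of the 11 windows and in 1.05% of all. A match is a description of these letters and says nothing of binding in these livers.

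Lpin1, on chromosome 12, had the highest log2 fold change of the members. On the log2(intensity + 16) scale after quantile normalization its representative probe set (1426516_a_at, the one with the highest mean) was at 12.31, 12.02, 11.50, 13.26 and 13.38 in the arrays labelled dn-cJun 16 to 20, against 10.50, 11.84, 11.61, 11.43 and 11.05 in controls 11 to 15. Arrays 19 and 20 stood highest, 4 of the 5 arrays labelled dn-cJun lay above every control, and array 18 lay within the control range, so the groups overlapped. The mean was 12.49 ± 0.81 in the arrays labelled dn-cJun and 11.28 ± 0.53 in the controls (SD, n = 5 each). This is a log2 fold change of 1.21 (SE 0.34), or 2.31-fold, and 42 of the 12736 genes tested had a larger difference in size. It did not pass the threshold over all genes (limma adjusted p = 0.127). With controls 14 and 15 left out it was 1.18 (limma adjusted p = 0.231).

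The further Lpin1 probe set ordered the arrays almost alike. Probe set 1418288_at was at 11.62, 11.02, 10.65, 12.55 and 12.84 in the arrays labelled dn-cJun, against 9.68, 11.18, 11.05, 10.87 and 10.57 in the controls, 1.07 (SE 0.39) as a log2 fold change. With the group means removed, the 2 probe sets correlated at 0.99 over the 10 arrays. The spread of Lpin1 between mice of a group was thus read alike by both probe sets. Over 24 other settings the log2 fold change of Lpin1 was 0.98 to 1.45 and the adjusted p 0.0649 to 0.239.

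Lpin2, on chromosome 17, was higher in the arrays labelled dn-cJun by each of its 4 probe sets, by less than Lpin1. The representative probe set (1452836_at) was at 12.44, 12.63, 12.70, 12.69 and 12.95 in the arrays labelled dn-cJun, against 12.16, 12.39, 12.28, 12.41 and 12.67 in the controls. Control 15 made the groups overlap, lying above arrays 16 and 17, and the other 4 controls lay below every array labelled dn-cJun. Its log2 fold change was 0.30 (SE 0.10, limma adjusted p = 0.203). The other probe sets gave 0.47 (SE 0.12) for 1452837_at, 0.33 (SE 0.13) for 1446316_at and 0.22 (SE 0.08) for 1460290_at, none past the threshold. With the group means removed, 1452837_at followed the representative probe set at r = 0.85, 1460290_at at 0.38 and 1446316_at at 0.12. The 4 probe sets thus shared the direction between groups but only in part the order of the mice, least so for 1446316_at. Without controls 14 and 15 the representative probe set was at 0.40 (limma adjusted p = 0.119).

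Lpin3, on chromosome 2, differed the other way. Its only probe set (1449440_at) was at 6.50, 6.60, 6.62, 6.87 and 6.78 in the arrays labelled dn-cJun, against 6.47, 7.14, 7.38, 7.09 and 6.99 in the controls. All 5 arrays labelled dn-cJun lay below 4 of the controls, and control 11 was the lowest of all 10 arrays. Lpin3 stood at -0.34 in log2 fold change (SE 0.21, limma adjusted p = 0.481). Leaving out controls 14 and 15 gave -0.31 (limma adjusted p = 0.651). The signal was low, with deposited intensities of 67.1 at the lowest and 150.2 at the highest. After normalization control 11 was also the lowest array for Lpin1 and for the representative probe set of Lpin2. It is the array with the Trizol entry and had the highest median deposited intensity (127.1). As deposited it was lowest for Lpin1 (1747), but control 13 was lowest for Lpin2 (4941, against 5417 in control 11). For Lpin3 as deposited, arrays labelled dn-cJun 16 to 19 (67.1 to 92.1) lay below control 11 (97.5). Without control 11 the log2 fold change of Lpin1 was 1.02, the log2 fold change of Lpin2 0.24 and the log2 fold change of Lpin3 -0.47. Differences between the 3 lipins in their response were not tested.

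**Figure D1:**
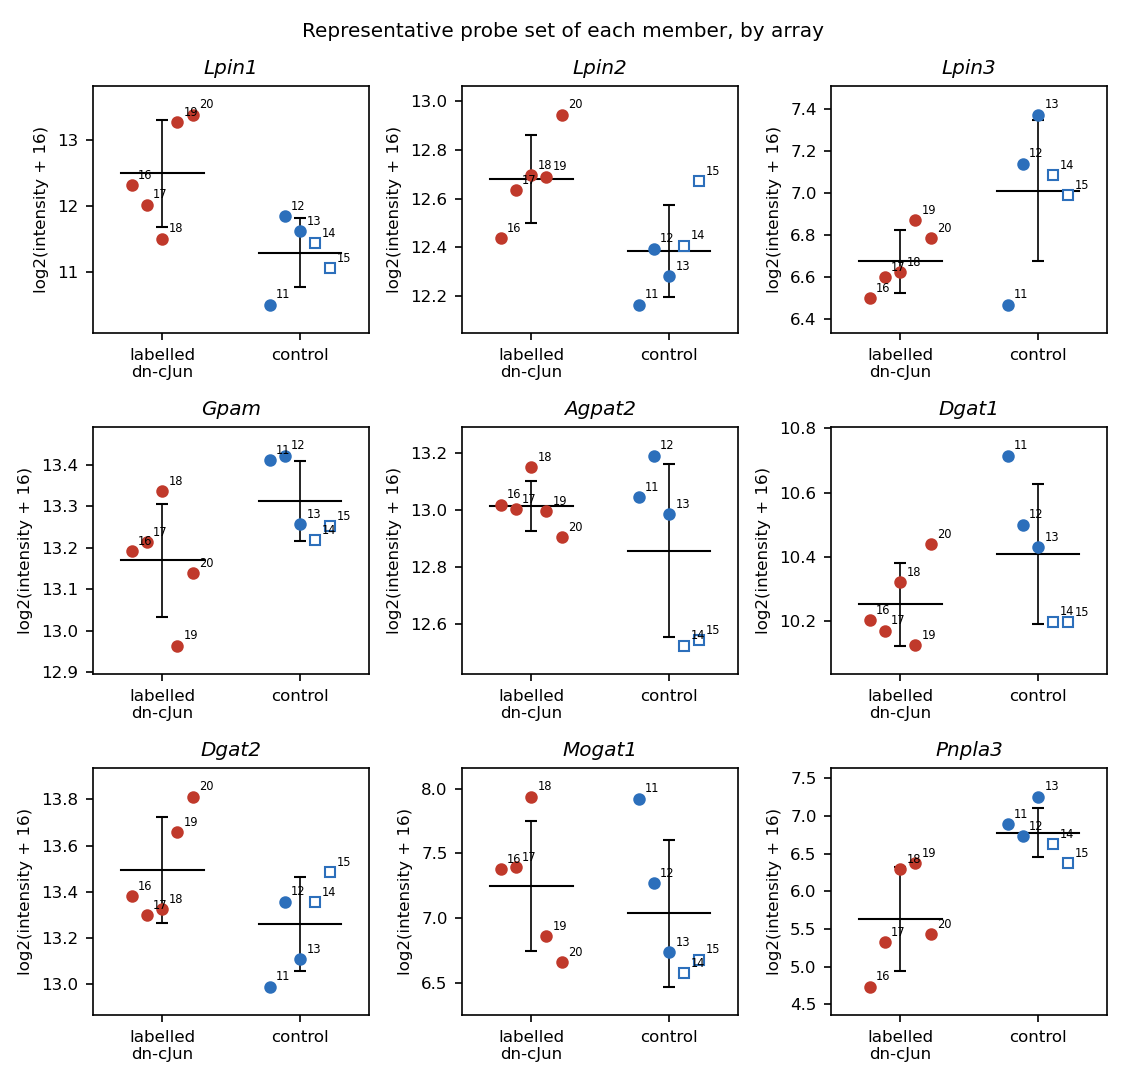
Log2(intensity + 16) of the representative probe set of each of the 9 members in every array, with numbers that name the replicate, a line at the mean and bars for the SD (n = 5 per group). Open squares are controls 14 and 15. The Pnpla3 values of the 5 arrays labelled dn-cJun lie below those of the 5 controls, and 4 of the 5 Lpin1 values labelled dn-cJun lie above all controls.

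Pnpla3, on chromosome 15, had the lowest log2 fold change of the members and was the only one whose groups did not overlap. Its probe set (1420655_at) was at 4.73, 5.33, 6.30, 6.37 and 5.43 in the arrays labelled dn-cJun 16 to 20, against 6.89, 6.73, 7.26, 6.63 and 6.38 in controls 11 to 15. The margin was small, since array 19 lay just under control 15. Its means were 5.63 ± 0.69 in the arrays labelled dn-cJun and 6.78 ± 0.33 in the controls (SD, n = 5 each). Pnpla3 thus stood at -1.14 in log2 fold change (SE 0.35, limma adjusted p = 0.150). Leaving out controls 14 and 15 gave -1.32 (limma adjusted p = 0.204). Separate group ranges were seen in 4.22% of all genes tested (2.13% of all genes lower and 2.1% higher in the arrays labelled dn-cJun) and in 2.59% of all probe sets.

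Pnpla3 was dim, so the size of its difference depends on how low values are treated. The deposited intensities were 9.43 to 61.3 in the arrays labelled dn-cJun and 72.3 to 138.3 in the controls. Of all probe sets, 30.8% lay below its mean in the arrays labelled dn-cJun and 51.2% in the controls, so it passed the filter (percentile 40) through the controls. The log2 fold change of Pnpla3 was -0.67 with a pseudocount of 64 and -1.55 with a pseudocount of 1. Detection calls were not used here, so whether the transcript was detected in the arrays labelled dn-cJun was not tested. Over 23 other settings the adjusted p was 0.0589 to 0.261.

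The enzymes that build phosphatidic acid differed little. Gpam, on chromosome 19, was at 12.96 to 13.34 in the arrays labelled dn-cJun and at 13.22 to 13.42 in the controls, with a difference of -0.14 (SE 0.07, limma adjusted p = 0.396). Leaving out controls 14 and 15 gave -0.20 (limma adjusted p = 0.351). Its 4 lowest arrays were all labelled dn-cJun, and only array 18 lay within the control range. The further probe set 1425834_a_at gave -0.03 (SE 0.13), at 10.41 to 10.83 in the arrays labelled dn-cJun and 10.44 to 11.17 in the controls. Without controls 14 and 15 it gave -0.18 (SE 0.13).

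Agpat2, on chromosome 2, split the controls. Its probe set (1428821_at) was at 13.018, 13.002, 13.149, 12.997 and 12.905 in the arrays labelled dn-cJun, against 13.044, 13.190, 12.984, 12.525 and 12.544 in the controls. The 2 low arrays were controls 14 and 15, those with high Xist, and the other 3 controls overlapped the arrays labelled dn-cJun. Agpat2 stood at 0.16 in log2 fold change (SE 0.12, limma adjusted p = 0.592), which was -0.06 (limma adjusted p = 0.792) without these 2 controls, so its direction turned.

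The enzymes of the last step differed in opposite directions, by small amounts. Dgat2, on chromosome 7, was at 13.38, 13.30, 13.33, 13.66 and 13.81 in the arrays labelled dn-cJun, against 12.99, 13.36, 13.11, 13.36 and 13.49 in the controls. Arrays 19 and 20, the highest for Lpin1, were also the highest for Dgat2. Dgat2 stood at 0.24 in log2 fold change (SE 0.12, limma adjusted p = 0.367), the further probe set 1422677_at gave 0.18 (SE 0.13), and the 2 probe sets correlated at 0.92 with the group means removed. Without controls 14 and 15 the representative probe set gave 0.35 (limma adjusted p = 0.252) and 1422677_at gave 0.29.

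Dgat1, on chromosome 15, was at 10.20, 10.17, 10.32, 10.12 and 10.44 in the arrays labelled dn-cJun, against 10.72, 10.50, 10.43, 10.20 and 10.20 in the controls, by probe set 1418295_s_at. As for Agpat2, the low controls were 14 and 15. Dgat1 stood at -0.16 in log2 fold change (SE 0.11, limma adjusted p = 0.540), and -0.30 (limma adjusted p = 0.247) without these 2. The further probe set 1445229_at was dim and variable, at -0.17 (SE 0.32), and at -0.04 without controls 14 and 15. The ending _s_at marks a probe set whose probes may match more than a single transcript, and with such probe sets left out only the dim probe set remains for Dgat1.

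Mogat1, on chromosome 1, had a dim probe set with a wide spread, at 7.38, 7.39, 7.94, 6.86 and 6.66 in the arrays labelled dn-cJun, against 7.92, 7.27, 6.73, 6.57 and 6.68 in the controls. Array 18 and control 11 were nearly equal and stood above the rest. Mogat1 stood at 0.21 in log2 fold change (SE 0.30, limma adjusted p = 0.799). With controls 14 and 15 left out it was -0.06 (limma adjusted p = 0.953).

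**Figure D2:**
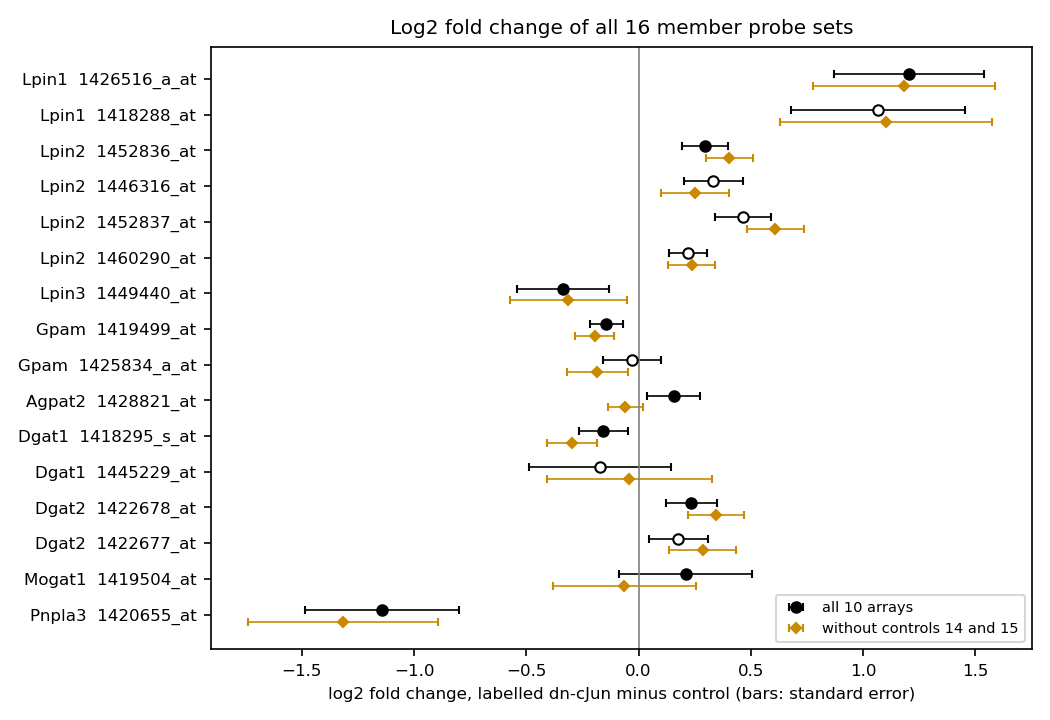
Log2 fold change, arrays labelled dn-cJun minus controls, of all 16 member probe sets in the fit over probe sets. Bars are standard errors, filled circles mark the representative probe set of a gene, open circles its further probe sets, and diamonds the values without controls 14 and 15. All probe sets of Lpin1, Lpin2 and Dgat2 lie right of 0, and Pnpla3 lies farthest left.

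Across the 9 members, none passed the threshold of a limma adjusted p under 0.05 over all genes, where 0.777% of the 12736 genes did, and 3 (Lpin1, Lpin2 and Pnpla3) had an unadjusted p under 0.05, where 14.9% of all genes did. None of the 9 passed without controls 14 and 15, where 0.408% did. All 9 were above the filter, 5 lay above 0 and 4 below it in log2 fold change, and their median log2 fold change was 0.16, beside 0.00 for all genes tested. With every probe set as its own unit, none of the 16 passed, where 0.692% of 27022 probe sets did. Separate group ranges were seen in 1 of the 9 (Pnpla3), where 4.22% of all genes tested had them. As the members were put together with this contrast in view, these counts describe them and support nothing further. In liver tissue, fewer cells of a type and less RNA per cell cannot be told apart.

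The way the members varied between mice of the same group is a separate measure from the contrast. With group means removed, Lpin1, Lpin2, Lpin3 and Dgat2 correlated positively with each other over the 10 arrays, at r of 0.37 to 0.82, and Gpam, Agpat2, Dgat1 and Mogat1 did so at 0.56 to 0.83. Every pair across these sets was negative over the 10 arrays, down to -0.77 for Lpin1 with Mogat1. The pattern did not hold without controls 14 and 15, where Lpin2 with Dgat1 was at 0.30, Dgat1 with Dgat2 at 0.09 and Agpat2 with Dgat1 at -0.10. The sets were seen in these values and were not tested as sets. Control 11, the array with the Trizol entry, was the lowest of the 10 arrays for Lpin1 (10.50), Lpin2 (12.16), Lpin3 (6.47) and Dgat2 (12.99). It was the highest array for Dgat1 (10.72) and the highest control for Mogat1 (7.92), but not the highest for Gpam or Agpat2. The part of control 11 in these correlations was not tested. Pnpla3, a dim gene, had r between -0.11 and 0.35 with the other members over the 10 arrays. These low values were not stable. Leaving out the 2 arrays farthest from the median of the other gene gave -0.37 for Mogat1 to 0.58 for Lpin3, with 0.53 for Lpin1.

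Of the 36 pairs, 8 had an unadjusted p under 0.05 in the two-sided exact permutation test over the 14400 re-pairings within groups, and none passed after Benjamini-Hochberg adjustment. The smallest adjusted p was 0.0912, shared by Lpin2 with Dgat2 (r = 0.82, exact p = 0.00417; rho = 0.67, exact p = 0.0526) and Gpam with Mogat1 (r = 0.83, exact p = 0.00507; rho = 0.83, exact p = 0.00847). Leaving out the 2 arrays farthest from the median of the first gene gave r = 0.62 for Lpin2 with Dgat2 and 0.87 for Gpam with Mogat1. Lpin1 with Lpin3 had r = 0.70 and rho = 0.77 (adjusted exact p = 0.110 for r), which was 0.84 without the 2 farthest arrays. Agpat2 with Dgat1 had r = 0.68 over 10 arrays (rho 0.71, adjusted exact p = 0.291 for r) and -0.10 without controls 14 and 15. The relation of Lpin1 with Dgat2 was 0.73 over 10 arrays and 0.91 without these controls (adjusted exact p = 0.125).

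**Figure D3:**
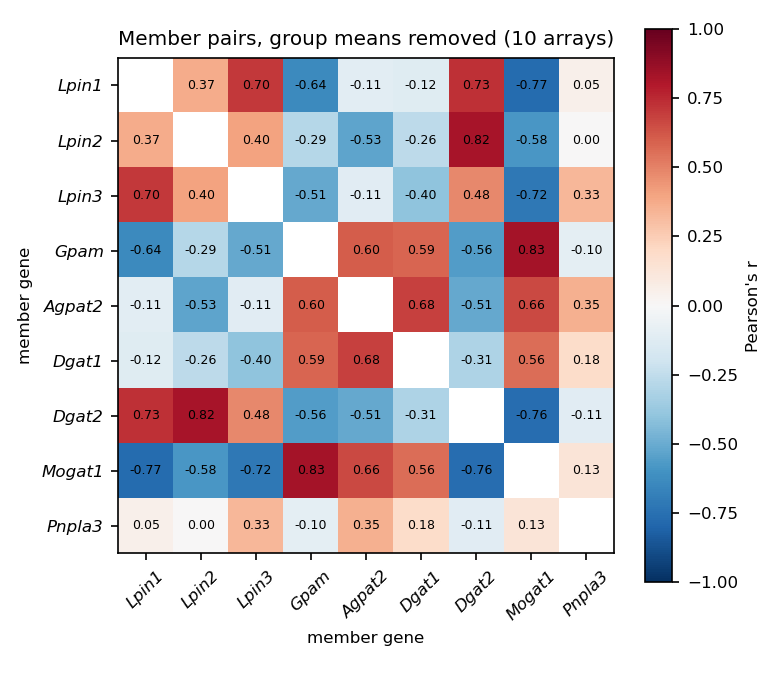
Pearson's r of each pair of the 9 members over 10 arrays after removal of the group means, with the value in each cell and colour from -1 (blue) to 1 (red). Lpin1, Lpin2, Lpin3 and Dgat2 are positive with each other and negative with Gpam, Agpat2, Dgat1 and Mogat1 over all 10 arrays, which did not hold for every pair without controls 14 and 15, and no pair passed the adjusted test.

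The genes whose pattern within groups was most like that of Lpin1, out of 12735 others, were Ccs at r = 0.96, St3gal4 at 0.96 and Timm10 at 0.95 over 10 arrays. Their own log2 fold changes between the groups were -0.15 (SE 0.08), 0.07 (SE 0.10) and -0.01 (SE 0.07) in the same order. The genes most like Pnpla3 were Fam219aos at 0.96, Cd80 at 0.94 and Tfap2a at 0.94, with log2 fold changes of 0.36 (SE 0.35), 0.21 (SE 0.29) and -0.27 (SE 0.26). These are the extremes of a search over all genes. With controls 14 and 15 left out, Timm10 was at -0.023 and Cd80 at 0.0039. The genes most like Pnpla3 were dim, as Pnpla3 was. Their log2 signal over the 10 arrays was 5.46 to 7.18 for Fam219aos, 5.85 to 6.98 for Cd80 and 5.83 to 6.99 for Tfap2a. The part of background signal in the likeness of these dim genes to Pnpla3 was not tested.

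The remaining enzymes of the route were read from a list of acyltransferases and phosphatases. Of its 12 tested genes, 7 were higher, 5 lower and none passed the threshold, with a median log2 fold change of 0.05. Gpat4, which encodes the acyltransferase of the endoplasmic reticulum that takes the same first step as Gpam, was at 10.69, 10.35, 10.63, 10.99 and 11.01 in the arrays labelled dn-cJun, against 10.07, 10.68, 10.14, 10.04 and 10.17 in the controls. Arrays 19 and 20 were again the highest and control 12 was the only control within the range of the arrays labelled dn-cJun. Gpat4 stood at 0.51 in log2 fold change (SE 0.15, limma adjusted p = 0.132), opposite in sign to that of Gpam. Without control 12 the log2 fold change of Gpat4 was 0.62 and passed (limma adjusted p = 0.0333). This was its only pass over 24 other settings. Plpp2, a lipid phosphate phosphatase of the cell membrane, was at 0.27 (SE 0.10) and the acyltransferase Agpat4 at -0.45 (SE 0.20). With probe sets averaged the log2 fold change of Plpp2 was 0.67 and passed (limma adjusted p = 0.00874). Plpp2 passed in 1 of 24 other settings. Without _x_at and _s_at probe sets the log2 fold change of Agpat4 was -1.05 (limma adjusted p = 0.178).

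Supply of the substrates showed smaller differences. Of 11 tested genes for glycerol phosphate and acyl-CoA supply, 6 were higher and 5 lower, with a median of 0.02 and none past the threshold. Slc27a2, a fatty acid transporter with acyl-CoA synthetase activity, was at 0.13 (SE 0.05), and Gpd1l and Gpd1, which make glycerol phosphate, were at 0.19 (SE 0.08) and 0.24 (SE 0.12). Gpd1 was at 0.11 without controls 14 and 15. In the branch that turns diacylglycerol and phosphatidic acid into phospholipids, 11 of 17 tested genes were higher and 6 lower, with a median of 0.06. Cept1, which makes phosphatidylcholine and phosphatidylethanolamine from diacylglycerol, was at 0.30 (SE 0.12), Etnk1, an ethanolamine kinase, at 0.20 (SE 0.08) and Cdipt, which makes phosphatidylinositol, at 0.12 (SE 0.06). None of these passed (limma adjusted p = 0.247 to 0.402 for the 3 named). Without controls 14 and 15, Cept1 was at 0.49 (limma adjusted p = 0.0554) and Etnk1 at 0.13. With a term for these controls in place of leaving them out, the log2 fold change of Cept1 was 0.48 and passed (limma adjusted p = 0.0325). Cept1 passed in 1 of 24 other settings.

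Hydrolysis of triglyceride, the reverse direction, had 7 of 12 tested genes higher and 5 lower, with a median of 0.05. G0s2, an inhibitor of the triglyceride lipase encoded by Pnpla2, was at 0.67 (SE 0.17, limma adjusted p = 0.0994), and Abhd5, which activates that lipase, was at -0.34 (SE 0.16, limma adjusted p = 0.342), while Pnpla2 itself was at -0.04 (SE 0.12). Without dn-cJun 16 the log2 fold change of G0s2 was 0.82 and passed (limma adjusted p = 0.0462). G0s2 passed in 1 of 24 other settings. Without controls 14 and 15 Abhd5 was at -0.56 (limma adjusted p = 0.119). Mgll, which cleaves monoacylglycerol, was at 0.33 (SE 0.10, limma adjusted p = 0.153). Its groups did not overlap, at 11.76 to 12.05 in the arrays labelled dn-cJun against 11.24 to 11.71 in the controls. The same held in either direction for 4.22% of all genes tested. Pnpla3 shares its protein family with Pnpla2, Pnpla6, Pnpla7 and Pnpla8, and these 4 were between -0.18 and 0.10, or -0.30 and 0.17 without controls 14 and 15.

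Targets of SREBP1c and ChREBP, the regulators of lipid synthesis that are known to act on Pnpla3, had 6 of 16 tested genes higher and 10 lower, with a median of -0.12. Scd1, the stearoyl-CoA desaturase, fell by 0.93 on the log2 scale (SE 0.16, limma adjusted p = 0.0228), the only call among the 93 genes of the 7 pathway lists. That is 1.08% of the 93, near the 0.777% of all genes tested. Over 24 other settings the log2 fold change of Scd1 was -1.21 to -0.72. The call was lost with equal array medians (limma adjusted p = 0.0676), equal trimmed means (0.0636) and no intensity trend (0.0924), and without control 13 (0.0537), dn-cJun 17 (0.0571) or dn-cJun 19 (0.0604). Me1, which supplies NADPH, was at -0.52 (SE 0.16, limma adjusted p = 0.152), and once controls 14 and 15 were left out at -0.82 (limma adjusted p = 0.00219), and Insig1, a sterol-regulated brake on SREBP processing, at 0.29 (SE 0.09, limma adjusted p = 0.167) and without the 2 controls at 0.16. Srebf1 was at 0.27 (SE 0.21) and Mlxipl, which encodes ChREBP, at -0.04 (SE 0.13), or -0.11 without them.

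Genes of fasting, glucocorticoid and PGC-1alpha responses, the conditions under which Lpin1 is known to be induced in liver, had 12 of 17 tested genes higher and 5 lower, with a median of 0.36 and none past the threshold. The medians of all genes and of the other 6 pathway lists lay between -0.12 and 0.06. Pck1, the gluconeogenic carboxykinase, was at 14.48, 14.02, 14.22, 14.50 and 14.36 in the arrays labelled dn-cJun, against 13.59, 13.98, 14.10, 13.89 and 13.90 in the controls, which is 0.43 higher on the log2 scale (SE 0.11, limma adjusted p = 0.0858). Nr3c1, the glucocorticoid receptor, was at 0.39 (SE 0.10, limma adjusted p = 0.0935), but at -0.01 when its probe sets were averaged, and Cpt1a, which carries fatty acids into mitochondria, was at 0.36 (SE 0.10, limma adjusted p = 0.124).

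Further genes of that list varied widely among the controls. Tat, tyrosine aminotransferase and a textbook glucocorticoid target, was at 13.30 to 14.59 in the arrays labelled dn-cJun, against 12.49 to 14.08 in the controls. Arrays 19 and 20 were the highest and control 11 the lowest, as for Lpin1, and controls 12 and 13 lay among the arrays labelled dn-cJun. Tsc22d3, another glucocorticoid target, was at 0.67 (SE 0.25) and G6pc, the glucose phosphatase of gluconeogenesis, at 0.72 (SE 0.30), with control 11 the lowest array for Tsc22d3 and the second lowest for G6pc. Tat was at 0.50 and G6pc at 0.44 without controls 14 and 15. Fgf21 and Igfbp1 were at -0.27 (SE 0.29) and -0.21 (SE 0.35), and at 0.03 and -0.035 without these controls. Ppargc1a, which encodes PGC-1alpha, was at 0.21 (SE 0.21), or 0.31 without them. Per1, Sgk1 and Fkbp5, of the same list, were at 0.39 (SE 0.20), 0.10 (SE 0.15) and -0.02 (SE 0.18). Without controls 14 and 15 Fkbp5 was at 0.22. Tat, Tsc22d3, G6pc, Per1, Sgk1 and Fkbp5 were named after their values were seen.

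Of 8 tested genes for seipin, the lipin phosphatase and their partners, 5 were higher and 3 lower, with a median of 0.04 and none past the threshold. Ctdnep1 and Cnep1r1, the phosphatase that acts on lipins and its regulatory subunit, were at 0.05 (SE 0.08) and -0.12 (SE 0.12), and Ctdnep1 was at 0.09 without controls 14 and 15. Bscl2, which encodes seipin, was at 0.15 (SE 0.08), or 0.10 without these controls, and Nfyb, which encodes a subunit of the transcription factor NF-Y, at -0.18 (SE 0.09). Fitm1, which encodes a protein of lipid droplet formation, was at 10.41 to 11.20 in the arrays labelled dn-cJun, against 8.87 to 10.74 in the controls, where the 2 lowest were controls 14 and 15. Fitm1 stood at 0.80 in log2 fold change (SE 0.29, limma adjusted p = 0.216) and at 0.31 (limma adjusted p = 0.424) without them.

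**Figure D4:**
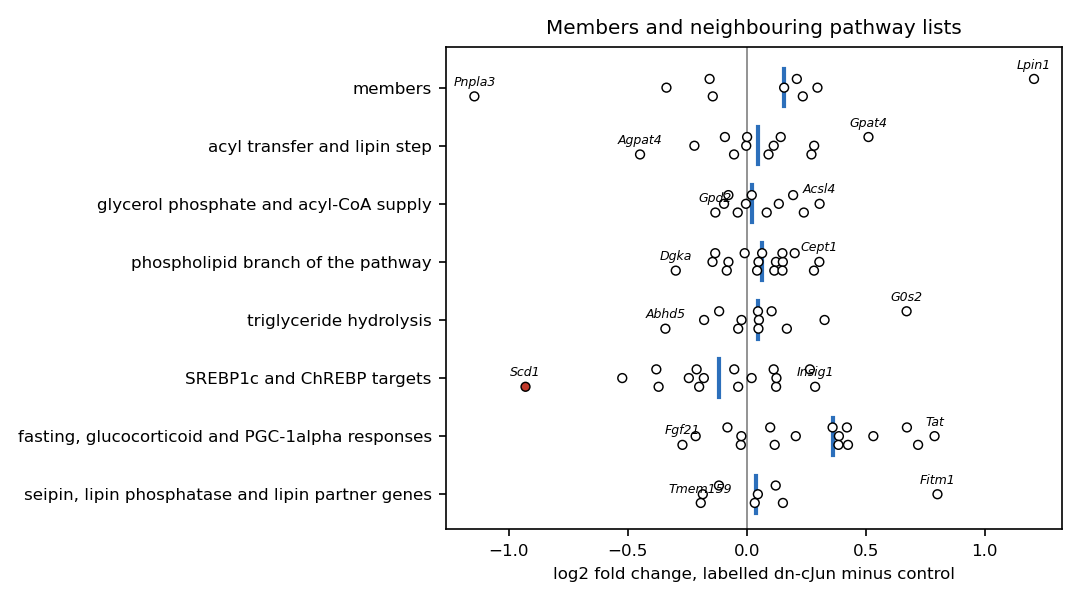
Log2 fold change, arrays labelled dn-cJun minus controls, of the 9 members and of the tested genes of 7 pathway lists, with a blue line at each median and the lowest and highest gene named. Red marks a limma adjusted p under 0.05 over all genes, which was met by Scd1 alone, and the fasting list has the highest median, at 0.36.

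Cell type markers were set beside these values, since lipins and acyltransferases are also expressed outside the hepatocyte. The 10 hepatocyte markers summed to 487696 to 506132 intensity units in the arrays labelled dn-cJun and to 460328 to 501945 in the controls, with none past the threshold. Of the adipocyte markers 7 were measured and 3 were above the filter, with sums of 1867 to 2539 in the arrays labelled dn-cJun and 1755 to 3298 in the controls. Adipoq, which defines adipocytes, was near the floor at 4.20 to 5.63 in the arrays labelled dn-cJun and 4.39 to 5.54 in the controls. The skeletal muscle markers, of which 9 were measured and 3 were above the filter, summed to 251.5 to 488.2 units in the arrays labelled dn-cJun and 263.2 to 491.1 in the controls. Macrophage and Kupffer cell markers summed to 17650 to 20925 in the arrays labelled dn-cJun, against 20748 to 30987 in the controls, with 2 of 8 tested lower past the threshold, as were 0.432% of all genes. These were Lyz2, at -0.70 (SE 0.13, limma adjusted p = 0.0294), and Cd5l, at -0.57 (SE 0.11, limma adjusted p = 0.0323), which had an adjusted p of 0.105 when controls 14 and 15 were left out. The Lyz2 call held in 15 of 24 other settings, 3 of them among the 10 that left an array out. The other 6 tested did not pass, with Cd68 at -0.27, Csf1r at -0.21, Clec4f at -0.15, Adgre1 at -0.11, Vsig4 at 0.05 and Marco at 0.24, and Clec4f was at 0.16, Marco at 0.79, Cd68 at -0.16, Csf1r at -0.13 and Vsig4 at 0.02 without controls 14 and 15. The part of these markers in the values of the members was not tested. The other lists had no member past the threshold, and the smallest unadjusted p in each belonged to Tdo2 for hepatocytes at 0.08 (SE 0.05), Cidec for adipocytes at -0.23 (SE 0.29), Ckm for muscle at 0.79 (SE 0.35), Tek for endothelium at 0.27 (SE 0.11), Pdgfrb for stellate cells at -0.55 (SE 0.18), Krt19 for bile duct at -0.89 (SE 0.32) and Cd8a for lymphocytes at -0.72 (SE 0.43). Of the genes tested, 8 were higher and 2 lower for hepatocytes, 2 and 1 for adipocytes, and 2 and 1 for muscle. The counts were 5 and 3 for endothelium, 3 and 5 for stellate cells, 1 and 4 for bile duct, and 4 and 3 for lymphocytes. Cidec and Cd8a thus went against most of their lists. With probe sets averaged, Ckm was at 0.09 and Cd8a at -0.10. Pdgfrb was at -0.32 without controls 14 and 15. The log2 fold change of Pdgfrb passed with probe sets averaged (-1.02, limma adjusted p = 0.0358), as deposited (-0.77, limma adjusted p = 0.0454) and without control 12 (-0.71, limma adjusted p = 0.0310).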

How the data were processed

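Affymetrix values of 10 livers were used. The authors deposited probe set intensity on a linear scale, by a method that the sources used here do not name. Median deposited intensities were 85.1 to 127.1 per array. The values were taken as log2(intensity + 16) and quantile normalized (limma 3.58.1, R 4.3.3). Control probe sets (64) were left out, 34945 probe sets had 1 symbol, 932 several and 9160 are unnamed here. The probe set of highest mean stood for each gene, and genes whose mean was below percentile 40 were dropped, leaving 12736. Levels of different probe sets were compared only to choose the probe set of a gene, to filter, and to give a percentile or call a signal low or dim.

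The arrays labelled dn-cJun were compared with the controls by limma (lmFit, eBayes with intensity trend, two-sided, Benjamini-Hochberg over all genes, threshold 0.05), also with each probe set as the unit, and the fit was tested on simulated data. The members, lists and tests were chosen with earlier results of these data known. Pathway genes were named by smallest p, up to 3 a list, and cell type markers by smallest p, 1 a list; genes most like Lpin1 and Pnpla3 by r, 3 each. List members beyond these (Pnpla2, Pnpla6 to Pnpla8, Srebf1, Mlxipl, Fgf21, Igfbp1, Ppargc1a, Ctdnep1, Cnep1r1, Tat, Tsc22d3, G6pc, Per1, Sgk1, Fkbp5, Adipoq and the macrophage markers other than Lyz2) were named after their values were seen. Promoters come from RefSeq (GRCm38.p6). Alternatives covered scaling, pseudocount, filter, probe set choice, variance model, array weights and arrays left out. The number of arrays limits precision. Figures were drawn with matplotlib 3.10.9.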

Additional observations from a re-analysis of the deposited data

Results flagged for a closer look

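Among 56 groups of 5 arrays looked at for member probe sets, marker sums, RNA quality, Apoe and Jun, 2 held an array far from the others, where chance gives about 1 in 20. Both were in the summed adipocyte markers. Array 19 of the arrays labelled dn-cJun stood at 2539 intensity units, with the next at 2042. Control 11 stood at 3298, with the next control at 1894. Fabp4 was at 10.78 in array 19 and at 11.23 in control 11, the highest of each group. Adipoq was near the floor there, at 4.27 and 4.95. No member probe set held an array far from the others.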

How the results depend on the processing

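No member passed the threshold under any of the 26 settings tried, and Lpin1, Lpin2, Lpin3, Gpam, Dgat1, Dgat2 and Pnpla3 kept their direction in each that gave a value. Agpat2 was at -0.059 and Mogat1 at -0.063 without controls 14 and 15 and with a term for them (log2 fold change of Agpat2 -0.058 and log2 fold change of Mogat1 -0.064). With values as deposited the median of all genes shifted by -0.19, and Gpd1l was at -0.014, Cdipt at -0.075, Bscl2 at -0.033 and St3gal4 at -0.13. The RNA quality difference, Gapdh, was then -0.031 and the RNA quality difference, Actb, 0.12 (adjusted exact permutation p = 0.0159). Nr3c1 was at -0.011 with probe sets averaged and Cd8a at 0.081 without _x_at and _s_at probe sets. With single arrays left out, Cd8a ranged over -0.91 to 0.17, Jun over -0.18 to 0.067 and Timm10 over -0.050 to 0.025. The number of genes past the threshold was 99. It was 490 as deposited, 65 with equal medians, 44 with averaged probe sets, 9 without trend, 52 without controls 14 and 15, 156 with a term for them, 8 and 250 at adjusted p thresholds of 0.01 and 0.1, and 13 (without dn-cJun 17) to 199 (without control 12) with an array left out. The number of probe sets past the threshold was 187, and it was 78 without controls 14 and 15, 651 as deposited and 47 to 246 with an array left out. In the 7 pathway lists 1 gene passed, 2 as deposited, with averaged probe sets and without controls 14 and 15, 3 with a term for these, 4 at a threshold of 0.1, and 0 with equal medians, with equal trimmed means, without trend and at a threshold of 0.01. With an array left out 0 to 2 passed. Adjusted over 36 pairs, none of the member correlations passed as deposited (smallest adjusted p 0.05) or without controls 14 and 15. The causes were not tested. No paired analysis was possible because the replicate numbers of the groups do not overlap.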
